A study of Mus musculus with 34 samples.

Results

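The IL-33 and type 2 cytokine axis was read in the stromal vascular fraction (SVF) of visceral fat from its 8 named genes, of 32098 genes listed in each of the 2 deposited tables. The members were the alarmin Il33, its receptor Il1rl1, the cytokines Il4, Il5 and Il13, the transcription factor Gata3, the growth factor Areg and the lectin Siglecf, and each was found by its gene identifier in both tables. All 8 passed the filter on low values at 8 and 20 weeks (1 TPM or more in at least 4 of 21 libraries). At 34 weeks 7 of 8 passed (1 TPM or more in at least 6 of 13 libraries), and Il5 did not. TPM is a length-corrected share of the transcripts of a library, so levels of different genes can be set side by side.

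The 34 libraries came from male C57BL/6J mice that were put on a diet at 6 weeks of age. HFD mice received a diet with 60% of its calories from fat (D12492) for 8, 20 or 34 weeks, with 6 libraries at each time. CHOW mice received a control diet (D12450B or D12450K, and the labels do not give which mice had which) for the same times, with 4 libraries at 8 weeks, 5 at 20 weeks and 7 at 34 weeks. All mice were fasted for 6 hours before the perigonadal fat was digested with collagenase, and the SVF is the pellet that remains once the adipocytes have floated off. It mixes immune cells, progenitors, endothelial and mesothelial cells, so fewer cells of a type and less RNA per cell cannot be told apart in any value below. The labels do not tie libraries to animals, so p-values measure the spread between these libraries.

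Il33 encodes a nuclear cytokine that is released when stromal cells are damaged, and Il1rl1 encodes ST2, the receptor through which group 2 innate lymphoid cells (ILC2), mast cells and regulatory T cells respond to it. These cells answer with IL-5, which sustains eosinophils, with IL-13, which together with IL-4 drives alternative activation of macrophages, and with amphiregulin, the EGF receptor ligand encoded by Areg. Gata3 is the transcription factor that maintains ILC2 and T helper 2 cells, and Siglecf encodes a sialic acid binding lectin of mouse eosinophils. The circuit is known for keeping lean visceral fat in a type 2 immune state. All 8 are protein-coding genes, and outside the cytokine locus the members are Il33 (ENSMUSG00000024810, chr19:29925114-29960718, plus strand), Il1rl1 (ENSMUSG00000026069, chr1:40429570-40465415, plus strand), Gata3 (ENSMUSG00000015619, chr2:9857078-9890034, minus strand), Areg (ENSMUSG00000029378, chr5:91139599-91148432, plus strand) and Siglecf (ENSMUSG00000039013, chr7:43351341-43359531, plus strand), all in GRCm38.

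Some libraries stood apart by RNA of other tissues. Seminal vesicle transcripts summed to 117775 TPM in HFD 8 week replicate 3, hemoglobin transcripts to 267366 TPM in HFD 8 week replicate 6, and germ cell transcripts to 11806 TPM in HFD 20 week replicate 5. Germ cell transcripts also summed to 2269 and 2713 TPM in HFD 20 week replicates 3 and 4 and to 4850 and 5216 TPM in HFD 34 week replicates 1 and 2, against 0.334 to 59.4 TPM in the CHOW 34 week libraries. Adipocyte transcripts summed to 12223, 56451 and 16915 TPM in CHOW 34 week replicates 5, 6 and 7, against 127 to 1837 TPM in the other 31 libraries. Between 13200 and 17213 genes reached 1 TPM in a library. Marker lists of macrophages (9 genes), adipose progenitors (8) and endothelial cells (7) passed the filter in full at all 3 times.

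The level of the members ranged widely at 8 and 20 weeks. Il1rl1 had the highest mean of the 8 in each of the 4 groups, from 33.3 ± 10.95 TPM (SD, n = 4) on CHOW at 8 weeks to 58.4 ± 20.5 TPM (SD, n = 6) on HFD at 20 weeks. Il13 was the lowest in 3 of these groups, and Siglecf was the lowest in the other, HFD at 20 weeks. At 34 weeks Il5 had the lowest mean on both diets. The 34 week table was processed apart from the other, so no level was tested across the 2 tables.

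**Figure D1:**
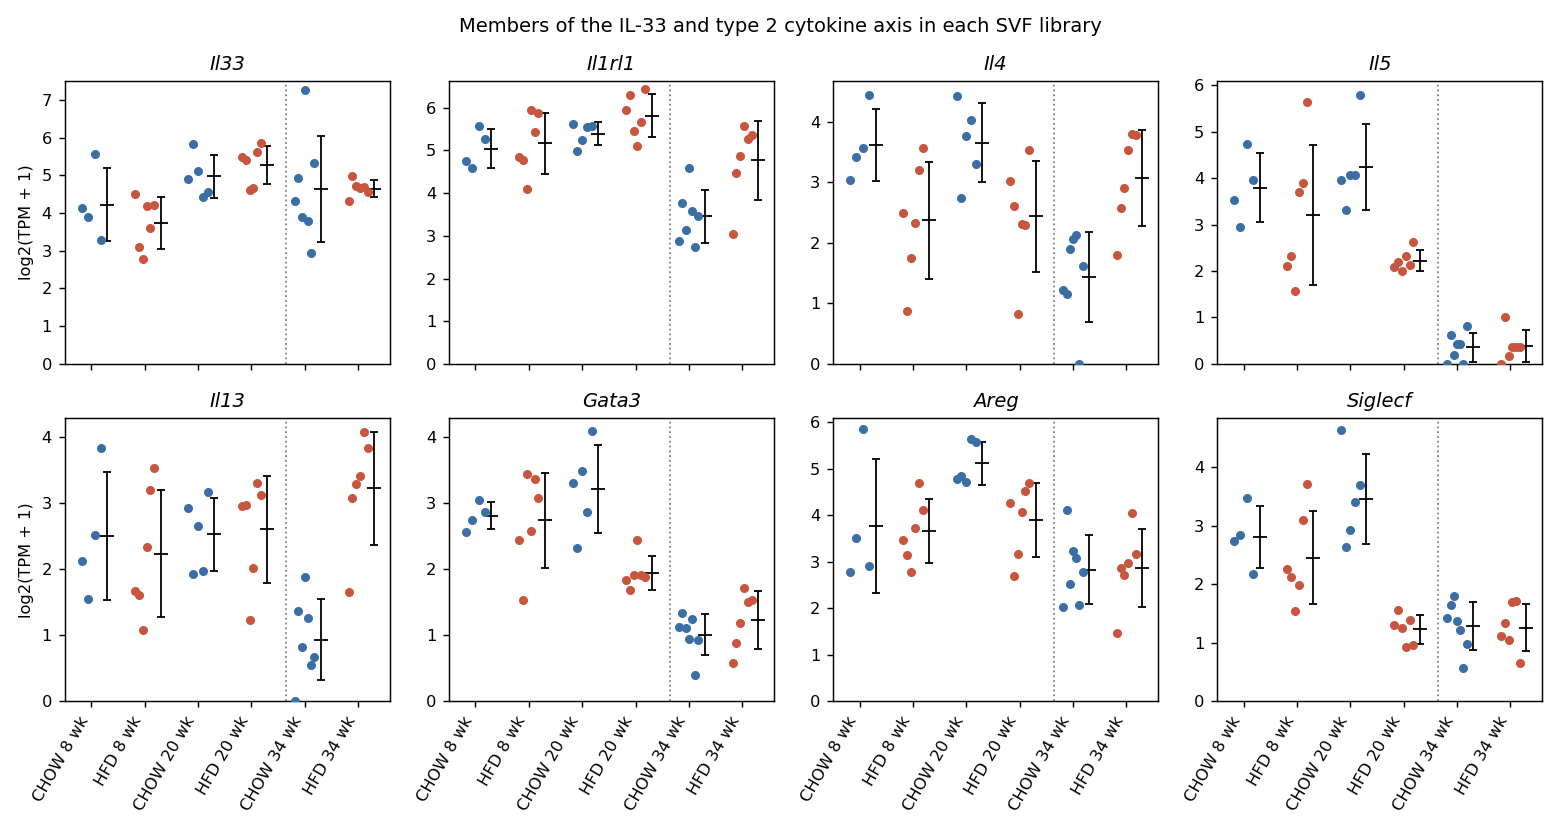
Each panel plots a member, with log2(TPM + 1) on the vertical axis and the 6 groups on the horizontal axis (blue CHOW, red HFD). Points are libraries in order of replicate number, bars are mean ± SD, and the dotted line separates the 34 week table. Siglecf and Il5 in the HFD 20 week libraries sit below every CHOW 20 week library. Il13 on HFD at 34 weeks sits above every CHOW 34 week library in 5 of 6.

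At 20 weeks the HFD libraries held less Siglecf, Il5 and Gata3 RNA than the CHOW libraries, while Il33, Il1rl1 and Il13 were not called. Of the 8 members, 3 fell and none rose, where 14.3% of all genes tested were called and 4.99% were lower. The median log2 fold change of the members was -1.22, against 0.08 over all genes tested. The libraries of both diets did not overlap for Siglecf, Il5 and Areg, all lower on HFD, against 9.19% of all genes tested (3.69% lower). The count of 3 was the same without HFD 20 week replicate 5 and the HFD 8 week libraries that stood apart. Without the libraries rich in germ cell RNA, HFD 20 week replicates 3, 4 and 5, it was 2, since Il5 no longer passed (-1.94, adjusted p = 0.115), while Siglecf (-2.19, adjusted p = 0.00766) and Gata3 (-1.41, adjusted p = 0.0356) did.

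Siglecf, the eosinophil lectin, read 23.9, 5.25, 6.60, 9.57 and 11.9 TPM in CHOW replicates 1 to 5 at 20 weeks. On HFD it lay between 0.903 and 1.93 TPM, with a median of 1.43 TPM. Every HFD library was thus below every CHOW library, and the mean was 1.38 ± 0.40 TPM (SD, n = 6) against 11.5 ± 7.43 TPM (SD, n = 5). The log2 fold change of -2.23 (SE 0.36, limma, adjusted p = 0.000433) is a 4.69-fold lower level on the TPM + 1 scale. Over the 4 groups the order of the means ran from CHOW at 20 weeks through CHOW at 8 weeks and HFD at 8 weeks to HFD at 20 weeks. Neighbours among the upper 3 differed by less than the larger of their SDs.

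Il5, the eosinophil growth factor, read 14.5, 8.97, 15.7, 15.7 and 54.7 TPM in CHOW replicates 1 to 5 at 20 weeks. On HFD it lay between 3.02 and 5.15 TPM with a median of 3.47 TPM, so that the groups did not overlap. On the log2 scale the change was -2.02 (SE 0.55, adjusted p = 0.0199). CHOW replicate 5 held the highest Il5 value of all 34 libraries and the most hemoglobin RNA of its group (129729 TPM, the other 4 between 27289 and 58882 TPM), and without it the log2 fold change was -1.63 and no longer passed (adjusted p = 0.0713). The part of hemoglobin RNA in this value was not tested. An antisense gene, Gm12214, overlaps Il5, and the sources used here do not give whether the quantification used strand.

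Gata3 read 8.86, 3.98, 10.2, 6.32 and 16.2 TPM on CHOW at 20 weeks. The highest, 16.2 TPM, was in replicate 5, the library with the most hemoglobin RNA of its group. On HFD Gata3 lay between 2.23 and 4.41 TPM with a median of 2.73 TPM. HFD replicate 4 was the only HFD library above the lowest CHOW library. On the log2 scale the change was -1.27 (SE 0.31, adjusted p = 0.00964), and it passed without each library in turn. Gata3 shares its span with 3 non-coding or uncharacterized genes (Gm13256, 4930412O13Rik and 9230102O04Rik), so reads of these could be divided differently. The means of the other 3 groups, CHOW at 20 weeks, HFD at 8 weeks (6.34 ± 3.12 TPM, SD, n = 6) and CHOW at 8 weeks (6.06 ± 1.00 TPM, SD, n = 4), came in this order, and neighbours among them differed by less than the larger of their SDs.

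Il4 and Areg were lower on HFD at 20 weeks by a similar amount but did not pass the threshold. Il4, which drives T helper 2 differentiation, read 20.4, 5.68, 12.5, 15.3 and 8.79 TPM on CHOW and lay between 0.778 and 10.6 TPM on HFD (median 4.54 TPM). The estimated log2 fold change was -1.21 (SE 0.46, adjusted p = 0.082), and the adjusted p ran from 0.0156 to 0.559 over the other processing choices, the last without the libraries rich in germ cell RNA, where the estimate was -0.59. Leaving out HFD replicate 6 or CHOW replicate 2 took it past the threshold (adjusted p = 0.0373 and 0.04998). Areg read 26.4, 27.9, 25.3, 49.1 and 46.8 TPM on CHOW and lay between 5.45 and 25.0 TPM on HFD (median 16.9 TPM), so every HFD library was below every CHOW library. The estimated log2 fold change was -1.22 (SE 0.48, adjusted p = 0.089), and it passed under 3 of 10 other processing choices (adjusted p from 0.0118 to 0.251).

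The alarmin, its receptor and Il13 were not called at 20 weeks. Il33 read 29.1, 56.1, 33.8, 20.5 and 22.3 TPM on CHOW and lay between 23.6 and 57.3 TPM on HFD (median 42.5 TPM). The groups overlapped and the estimate was 0.31 (SE 0.38, adjusted p = 0.624). Il1rl1 read 47.8, 30.8, 37.1, 45.5 and 46.8 TPM on CHOW and lay between 33.2 and 85.9 TPM on HFD (median 54.9 TPM), an estimate of 0.42 (SE 0.30, adjusted p = 0.363). The gene value of Il1rl1 sums its membrane-bound and soluble forms, which were not told apart. For Il33, Il1rl1, Il13 and Areg, any groups next to each other in the order of the 4 means differed by less than the larger of their SDs. Il13 read 6.60, 2.80, 5.25, 2.93 and 7.92 TPM on CHOW and lay between 1.33 and 8.91 TPM on HFD (median 6.78 TPM). Its log2 fold change of 0.07 (SE 0.47, adjusted p = 0.939) changed sign with the processing, to -0.13 after quantile normalization.

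**Figure D2:**
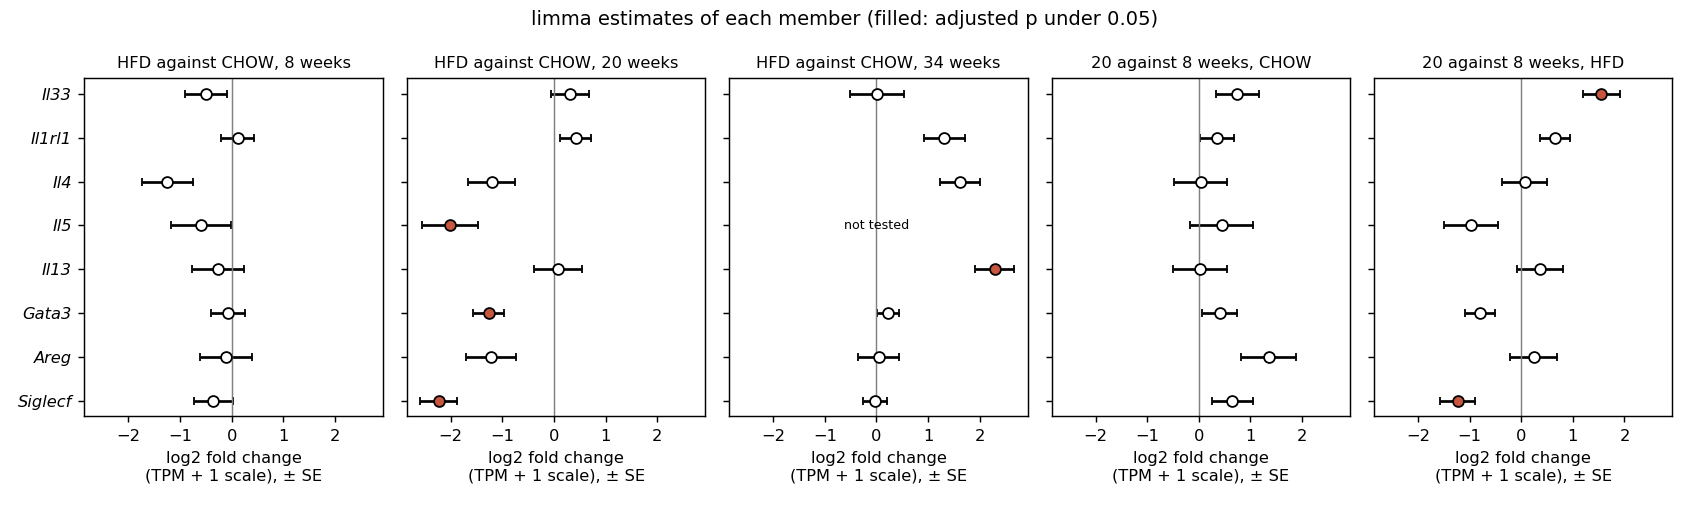
The log2 fold change of each member on the TPM + 1 scale is plotted with its SE for 5 comparisons, and filled points passed an adjusted p of 0.05. Siglecf, Il5 and Gata3 are filled to the left of 0 at 20 weeks, Il13 is filled to the right at 34 weeks, and Il33 and Siglecf are filled on opposite sides for 20 against 8 weeks on HFD.

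The member called at 34 weeks was not among those called at 20 weeks. The libraries of these times were processed and fitted apart, so the diet difference at 34 weeks was not tested against that at 20 weeks. Of the 7 members tested, Il13 alone was called and was higher on HFD, where 0.243% of all genes tested were called, all of them higher. The median log2 fold change of the members was 0.22, against 0.10 over all genes tested. No member had groups that did not overlap (0.937% of all genes tested).

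Il13, the cytokine of mucus production and alternative macrophage activation, lay between 0 and 2.68 TPM in the CHOW libraries (median 0.759 TPM) and between 2.13 and 15.9 TPM in the HFD libraries (median 9.19 TPM). In 5 of 6 HFD libraries it was above every CHOW library, and HFD replicate 1 was not. On the log2 scale the change was 2.29 (SE 0.38, adjusted p = 0.0358), or 4.89-fold on the TPM + 1 scale. The direction held in each of the 13 fits with a library left out, with log2 fold changes from 2.12 to 2.61, but the call was lost in 9 of them (adjusted p up to 0.121). The libraries whose absence ended it were CHOW replicates 1, 3, 5 and 7 and HFD replicates 2, 3, 4, 5 and 6. Without CHOW replicates 5, 6 and 7, the libraries rich in adipocyte RNA, the log2 fold change was 2.21 (adjusted p = 0.175).

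Il4 and Il1rl1 had positive estimates at 34 weeks that did not pass. Il4 lay between 0 and 3.37 TPM on CHOW (median 2.07 TPM) and between 2.48 and 12.9 TPM on HFD (median 8.52 TPM), at an estimated log2 change of 1.63 (SE 0.39, adjusted p = 0.126). Il1rl1 lay between 5.71 and 23.01 TPM on CHOW (median 10.0 TPM) and between 7.30 and 46.7 TPM on HFD (median 32.96 TPM), at an estimated log2 change of 1.32 (SE 0.39, adjusted p = 0.196). The HFD replicate 1 library had the lowest value of its group for 7 of the 8 members, Siglecf being the other. It was also, with replicate 2, a library rich in germ cell RNA, whose part in these values was not tested. Without replicate 1 both passed (adjusted p = 0.0396 for Il4 and 0.0297 for Il1rl1), and the adjusted p of Il13 was 0.00743. Without replicates 1 and 2 together, Il13 (2.72, adjusted p = 0.0168) and Il1rl1 (1.82, adjusted p = 0.0418) passed and Il4 did not (2.06, adjusted p = 0.0582).

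None of the members that were lower at 20 weeks was called at 34 weeks. Siglecf lay between 0.481 and 2.49 TPM on CHOW (median 1.58 TPM) and between 0.565 and 2.28 TPM on HFD (median 1.35 TPM), at an estimated log2 change of -0.02 (SE 0.23, adjusted p = 0.972). Gata3 lay between 0.313 and 1.53 TPM on CHOW and between 0.487 and 2.29 TPM on HFD, at an estimated log2 change of 0.22 (SE 0.22, adjusted p = 0.661). Il5 was at 0 to 0.772 TPM on CHOW and at 0 to 1.02 TPM on HFD, and a fit without a filter gave a log2 difference of 0.02 (SE 0.17, adjusted p = 0.952). All 3 were thus at low levels on both diets in the 34 week table, where CHOW libraries too read below the CHOW libraries of the other table.

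Areg and Il33 had estimates near 0 at 34 weeks. Areg lay between 3.06 and 16.4 TPM on CHOW (median 5.92 TPM) and between 1.76 and 15.5 TPM on HFD (median 6.57 TPM), at an estimated log2 change of 0.04 (SE 0.39, adjusted p = 0.973). Il33 lay between 6.73 and 154 TPM on CHOW (median 18.8 TPM) but only between 18.8 and 30.4 TPM on HFD (median 24.4 TPM), at an estimated log2 change of 0.01 (SE 0.52, adjusted p = 0.995). The SD of Il33 on CHOW, 51.7 TPM, exceeded the mean of 39.2 TPM through replicate 4. The signs of Il33 and Areg changed with median-ratio scaling (-0.10 and -0.06).

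At 8 weeks no member was called, where 0.0238% of all genes tested were called. By limma 1 of 8 members had an unadjusted p under 0.05, against 9.7% of all genes. That member was Il4, which read 7.17, 9.65, 10.8 and 20.8 TPM on CHOW and lay between 0.841 and 10.8 TPM on HFD (median 4.31 TPM). Its log2 fold change of -1.24 (SE 0.49, adjusted p = 0.408) was close in size to that at 20 weeks, and the groups overlapped. Il5 spread the most on HFD at 8 weeks, from 1.97 to 48.7 TPM with a median of 7.99 TPM. The highest value was in replicate 6, the library with the most hemoglobin RNA. That library also had the highest Siglecf, Il4 and Il13 values of its group (12.2, 10.8 and 10.5 TPM). The log2 fold change of Il5 was -0.59 (SE 0.58, adjusted p = 0.81), or -0.79 (adjusted p = 0.523) without the libraries that stood apart. For Siglecf it was -0.35 (SE 0.38, adjusted p = 0.836), and for Il33 -0.50 (SE 0.40, adjusted p = 0.748).

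Between 8 and 20 weeks on HFD, Il33 rose and Siglecf fell. These were 2 of 8 members, where 8.78% of all genes tested were called (6.12% higher and 2.65% lower). The comparison shares its HFD 20 week libraries with the diet comparison at 20 weeks. Il33 lay between 5.83 and 21.8 TPM at 8 weeks (median 14.1 TPM) and between 23.6 and 57.3 TPM at 20 weeks, so the groups did not overlap (2.89% of all genes tested were higher without overlap). On the log2 scale the change was 1.55 (SE 0.36, adjusted p = 0.0096). Without the libraries that stood apart it was 1.37 (adjusted p = 0.0581), and without those rich in germ cell RNA 1.86 (adjusted p = 0.0198).

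Siglecf lay between 1.92 and 12.2 TPM on HFD at 8 weeks (median 3.59 TPM), and the log2 fold change to 20 weeks was -1.23 (SE 0.34, adjusted p = 0.0297). The call was lost without HFD 8 week replicate 5 or 6 or HFD 20 week replicate 4 (adjusted p = 0.0713, 0.0741 and 0.0558), without the libraries that stood apart (-1.17, adjusted p = 0.0519) and without those rich in germ cell RNA (-1.19, adjusted p = 0.152). Gata3 lay between 1.89 and 9.93 TPM at 8 weeks (median 6.22 TPM), at an estimated log2 change of -0.80 (SE 0.29, adjusted p = 0.0861). Il1rl1, with values of 15.97 to 61.0 TPM at 8 weeks, had 0.65 (SE 0.29, adjusted p = 0.144), and Il5 had -0.98 (SE 0.52, adjusted p = 0.234). The highest Gata3 value at 8 weeks, 9.93 TPM, was in HFD replicate 3, the library rich in seminal vesicle RNA. That library had the lowest values of its group for Il33, Il1rl1, Il5, Il13, Areg and Siglecf. It also enters the interaction given below, and the part of seminal vesicle RNA in its Gata3 value was not tested.

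On CHOW no member was called between 8 and 20 weeks (0.613% of all genes tested), and by limma 1 of 8 had an unadjusted p under 0.05 (12.5% of all genes). This was Areg, which read 5.84, 10.3, 57.3 and 6.52 TPM at 8 weeks against the 25.3 to 49.1 TPM given above for 20 weeks. Its change was estimated at 1.35 (SE 0.53, adjusted p = 0.272), and without CHOW 8 week replicate 3, the high value, it was 2.05 and passed (adjusted p = 0.027). Il33 read 16.4, 13.9, 46.5 and 8.80 TPM at 8 weeks, and its log2 fold change of 0.75 (SE 0.42, adjusted p = 0.49) was in the direction seen on HFD. Siglecf read 5.70, 6.20, 10.1 and 3.52 TPM at 8 weeks, at an estimated log2 change of 0.65 (SE 0.40, adjusted p = 0.544), the sign opposite to that on HFD.

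The interaction of diet and time, a test of the diet difference at 20 weeks against that at 8 weeks, called no member (0.297% of all genes tested). By limma 2 of 8 had an unadjusted p under 0.05, Siglecf and Gata3, against 13.8% of all genes. The estimates were -1.88 for Siglecf (SE 0.52, adjusted p = 0.146), -1.20 for Gata3 (SE 0.45, adjusted p = 0.293), -1.42 for Il5 (SE 0.80, adjusted p = 0.417), -1.11 for Areg (SE 0.70, adjusted p = 0.463) and 0.80 for Il33 (SE 0.55, adjusted p = 0.499). A time dependence of the diet difference was thus not shown for any member, though Siglecf passed once libraries were weighted by quality (adjusted p = 0.0206).

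Il4, Il13 and Il5 lie within 122125 bases of chromosome 11 (mm10, GRCm38). Il4 (ENSMUSG00000000869, chr11:53602982-53618669, minus strand) is separated from Il13 (ENSMUSG00000020383, chr11:53631324-53634702, minus strand) by 12655 bases, and Il13 from Il5 (ENSMUSG00000036117, chr11:53720794-53725106, plus strand) by 86092 bases. Although neighbours, Il5 and Il13 did not keep a fixed proportion. The Il5 level exceeded the Il13 level in 4 of 4, 6 of 6 and 5 of 5 libraries of CHOW 8 weeks, HFD 8 weeks and CHOW 20 weeks, with median ratios of 3.34, 1.86 and 3.20. On HFD at 20 weeks it did so in 2 of 6 libraries (median ratio 0.597), and at 34 weeks in 1 of 7 CHOW and 0 of 6 HFD libraries (median ratios 0.221, over the 6 libraries with Il13 above 0, and 0.0201). These ratios were looked at after the values had been seen and are given with no test.

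**Figure D3:**
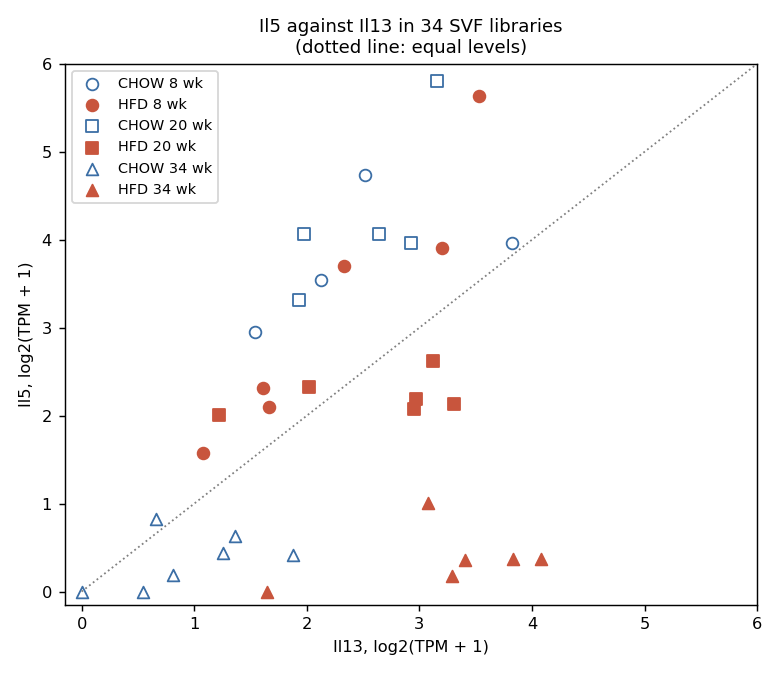
Each point is a library, with log2(TPM + 1) of Il13 on the horizontal and of Il5 on the vertical axis, open for CHOW and filled for HFD, and the dotted line marks equal levels. All 15 libraries of CHOW 8 weeks, HFD 8 weeks and CHOW 20 weeks lie above the line, and all 6 of HFD 34 weeks lie below it.

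Gata3 is a member and binds GATA motifs. The 250 bases before the start of each member (RefSeq, GRCm38.p6) were therefore searched on both strands. The letters sought were GATA with an adenine or a thymine before them and an adenine or a guanine after them. A match was found for 4 of the 8 members, Il1rl1, Il4, Il5 and Il13. At least 1 match stood in 26.5% of all 32851 windows, so a match by itself is common. The 8 members had 11 windows, so the share of members cannot be set against this share of windows. The upstream start of Il1rl1 held 5, a number reached by 14 windows in all (0.0426%), and its second start held 1. The windows of Il5 and Il13 held 1 each, beginning 72 and 81 bases before the start. These 4 windows are shown because Il5 and Il13 are the cytokines called at 20 and at 34 weeks and because of the number of matches before Il1rl1. The windows of Il1rl1 were thus chosen after the search. Il1rl1 and Il13 were not called at 20 weeks, where Gata3 was, and whether Gata3 acts on any member was not tested. The downstream start of Il4 held 1 match and is not shown. Capitals mark the matches on either strand. They are runs of letters, not shown sites, and no match in a window says only that these letters are not in it.
Il1rl1 upstream start, chr1:40429320-40429569, plus strand: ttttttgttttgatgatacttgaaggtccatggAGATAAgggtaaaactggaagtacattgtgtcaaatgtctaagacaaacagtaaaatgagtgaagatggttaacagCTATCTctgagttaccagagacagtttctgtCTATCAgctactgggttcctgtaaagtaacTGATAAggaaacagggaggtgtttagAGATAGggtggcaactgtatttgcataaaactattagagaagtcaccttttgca
Il1rl1 second start, chr1:40439379-40439628, plus strand: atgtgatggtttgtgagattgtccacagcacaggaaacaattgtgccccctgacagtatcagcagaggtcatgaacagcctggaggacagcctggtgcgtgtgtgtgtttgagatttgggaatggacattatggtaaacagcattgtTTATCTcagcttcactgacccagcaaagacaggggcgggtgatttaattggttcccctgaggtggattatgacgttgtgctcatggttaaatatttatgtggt
Il5, chr11:53720544-53720793, plus strand: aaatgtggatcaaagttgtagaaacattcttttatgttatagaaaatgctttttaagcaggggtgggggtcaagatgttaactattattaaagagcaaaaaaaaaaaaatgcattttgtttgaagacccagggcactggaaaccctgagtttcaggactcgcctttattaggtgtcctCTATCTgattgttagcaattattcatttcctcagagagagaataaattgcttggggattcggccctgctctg
Il13, chr11:53634703-53634952, minus strand: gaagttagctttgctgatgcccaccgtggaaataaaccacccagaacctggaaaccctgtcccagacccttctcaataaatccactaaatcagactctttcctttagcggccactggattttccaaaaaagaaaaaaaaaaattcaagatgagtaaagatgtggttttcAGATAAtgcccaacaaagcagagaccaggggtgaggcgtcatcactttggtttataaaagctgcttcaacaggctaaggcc

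Genes downstream of the cytokines were read from a list of 13 IL-4 and IL-13 target genes. At 20 weeks 5 of 13 fell on HFD and none rose, where 4.99% of all genes tested fell, and the list median was -0.90. They included Retnla, the macrophage resistin-like molecule (log2 fold change -2.62, adjusted p = 0.000169), and the chemokines Ccl17 (-2.47, adjusted p = 0.00193) and Ccl24 (-2.13, adjusted p = 0.00012). From 8 to 20 weeks on HFD 5 of 13 fell as well, led by Retnla (-3.48, adjusted p = 7.69e-06), where 2.65% of all genes tested fell. Over this time on HFD neither Il4 (0.07, adjusted p = 0.941) nor Il13 (0.36, adjusted p = 0.647) was called by limma. Retnla (-3.03, adjusted p = 0.0184) and Mgl2, a macrophage lectin (-2.35, adjusted p = 0.0317), also passed the interaction test, as did 0.297% of all genes tested. At 34 weeks 0 of 11 tested genes were called (limma), 1 of 11 had an unadjusted p under 0.05, and the list median was -0.43.

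Receptors and signalling chains were read next. Of all genes tested, 4.99% fell and 1566 of 16808 rose on HFD at 20 weeks, so 1 gene of 13 is near these shares. From 8 to 20 weeks 6.12% of all genes tested rose on HFD and 77 of 16808 rose on CHOW. Of 13 tested genes of IL-4, IL-13 and IL-5 reception, 1 fell on HFD at 20 weeks, the receptor chain Il13ra1 (-0.84, adjusted p = 0.0101). From 8 to 20 weeks the transcription factor Stat5a rose on CHOW (1.53, adjusted p = 0.00575) and on HFD (1.07, adjusted p = 0.0033), and the kinase Jak2 rose on HFD (0.77, adjusted p = 0.0462). Of 13 genes of IL-33 receptor signalling, 1 rose at 20 weeks, the adaptor Tab1 (0.66, adjusted p = 0.0247), and from 8 to 20 weeks on HFD 2 rose, Rela (0.90, adjusted p = 0.00325) and the adaptor Myd88 (0.67, adjusted p = 0.00395). Rela rose on CHOW too (0.99, adjusted p = 0.0355). Of 10 tested genes of the EGF family, to which Areg belongs, 3 fell and 1 rose on HFD at 20 weeks. The ligand Ereg rose (1.73, adjusted p = 0.00664), while the ligands Hbegf (-0.95, adjusted p = 0.0163) and Tgfa (-0.75, adjusted p = 0.0298) fell.

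Of 11 tested regulators of type 2 lymphocytes, 2 fell at 20 weeks, the transcription factors Batf (-0.91, adjusted p = 0.00689) and Irf4 (-0.85, adjusted p = 0.0178). At that time 4.99% of all genes tested fell and 1566 of 16808 rose on HFD. Of 5 neighbours of the cytokine locus, 1 rose, Kif3a (0.58, adjusted p = 0.0297). Of 3 tested genes of the other type 2 alarmins and their receptors none was called on HFD at 20 weeks (limma, 1 with an unadjusted p under 0.05), while Il17ra (1.25, adjusted p = 9.61e-05) and Crlf2 (0.59, adjusted p = 0.0367) rose from 8 to 20 weeks on HFD, and Il17ra rose on CHOW too (0.95, adjusted p = 0.0355). No gene of these 7 lists was called between the diets at 8 or at 34 weeks by limma, where 8 of 68 and 7 of 63 tested entries had an unadjusted p under 0.05, against 9.7% and 13.2% of all genes.

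**Figure D4:**
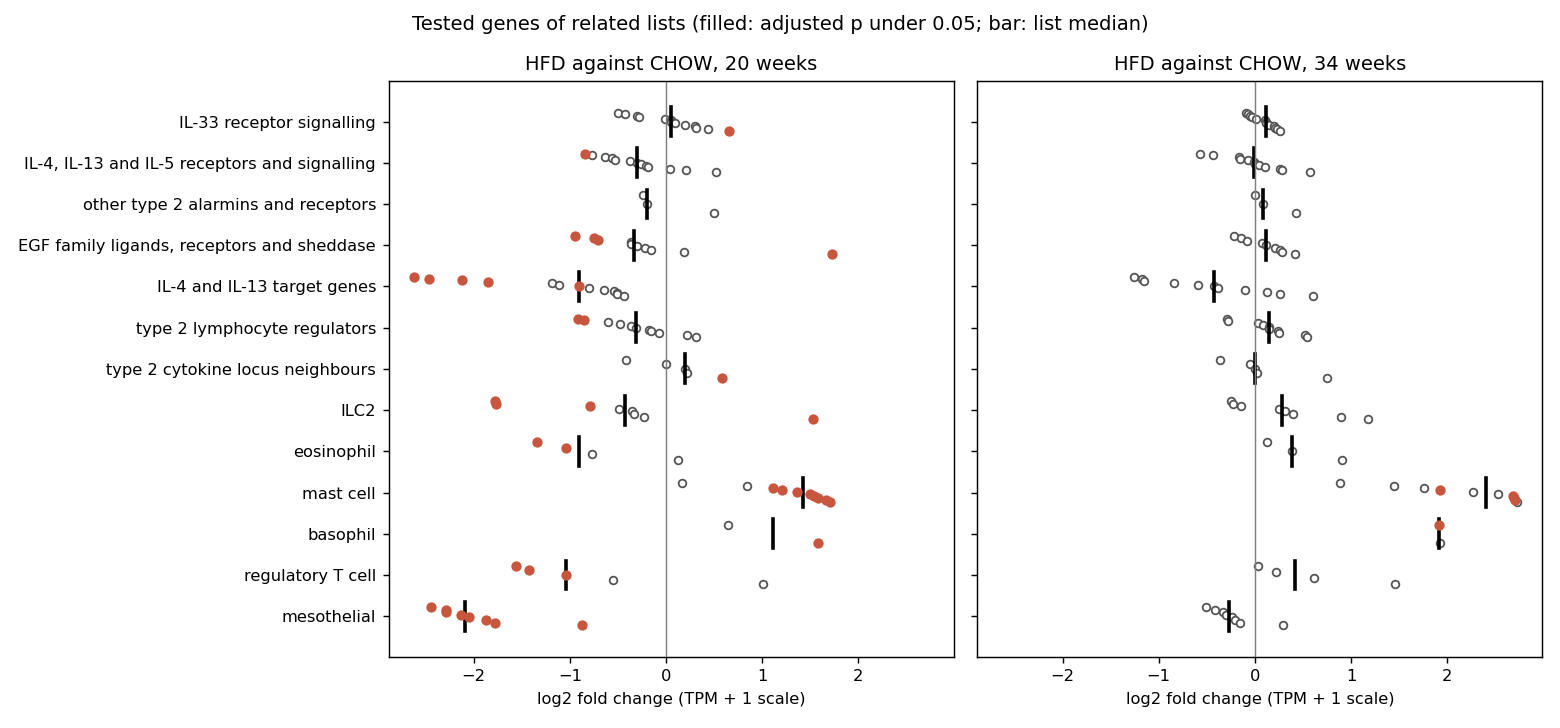
Log2 fold changes (TPM + 1 scale) of the tested genes of 13 lists are plotted for HFD against CHOW at 20 and 34 weeks, filled where the adjusted p was under 0.05, with a bar at the list median. At 20 weeks the filled points of the target genes lie left of 0 and those of the mast cell genes right of it, and at 34 weeks filled points are left only among mast cell and basophil genes.

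Markers of cells that could carry the members also differed between the diets, some lower and some higher, and their part in the results was not tested. The marker counts at 20 weeks stand beside 4.99% of all genes tested that fell on HFD and 1566 of 16808 that rose. Of 4 tested eosinophil genes, 2 fell on HFD at 20 weeks, the receptor Ccr3 (-1.35, adjusted p = 0.0304) and the granule protein gene Prg2 (-1.04, adjusted p = 0.0268). Il5ra (-0.77, adjusted p = 0.0934) and Ear1 (0.13, adjusted p = 0.836) were not called by limma. The 7 genes of the list summed to 18.9 to 45.1 TPM on CHOW and 8.10 to 17.5 TPM on HFD at 20 weeks. The granule gene Epx, which defines eosinophils, was at 0 in all 12 HFD libraries of 8 and 20 weeks and in 4 of 5 CHOW libraries of 20 weeks. At 34 weeks the list summed to 3.19 to 12.7 TPM on CHOW and 7.52 to 23.4 TPM on HFD.

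Of 8 tested ILC2 genes, 3 fell and 1 rose on HFD at 20 weeks. Klrg1 (-1.77, adjusted p = 0.000334) and the IL-2 receptor chain Il2ra (-1.76, adjusted p = 0.000278) fell, and the IL-7 receptor gene Il7r rose (1.52, adjusted p = 0.0034). The 10 genes summed to 239 to 285 TPM on CHOW and 192 to 247 TPM on HFD, and Nmur1, a narrow ILC2 marker, was at 0 in 5 of 5 CHOW and 3 of 6 HFD libraries. Regulatory T cell genes fell in 3 of 5, Ccr8 (-1.56, adjusted p = 0.00665), Foxp3 (-1.42, adjusted p = 0.00144) and Ctla4 (-1.04, adjusted p = 0.0267). Ikzf2 had an estimate of -0.55 (adjusted p = 0.158), and only Il10 had a positive one (1.01, adjusted p = 0.215). The 5 genes, Il10 included, summed to 163 to 212 TPM on CHOW and 138 to 503 TPM on HFD. All 8 mesothelial genes fell, led by Krt19 (-2.44, adjusted p = 0.00135), and their sums ran from 218 to 750 TPM on CHOW and from 69.5 to 217 TPM on HFD. At 34 weeks none of the ILC2, regulatory T cell or mesothelial genes was called (limma), and 2 of 8, 1 of 4 and 0 of 8 had an unadjusted p under 0.05.

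Mast cell genes went the other way at 20 weeks, and they were higher again at 34 weeks, where Il13 was. At 20 weeks 8 of 10 rose on HFD, led by Cpa3 (1.71, adjusted p = 0.00355), Tpsb2 (1.66, adjusted p = 0.000892) and Tpsab1 (1.58, adjusted p = 0.00893), which encode mast cell proteases. At 34 weeks 4 of 10 rose, led by Mcpt4 (2.71, adjusted p = 0.0395), Cpa3 (2.70, adjusted p = 0.0481) and Cma1 (2.68, adjusted p = 0.0459), where 0.243% of all genes tested rose. At 8 weeks the list median was -1.03, none was called (limma) and 7 of 10 had an unadjusted p under 0.05, with sums of 154 to 327 TPM on HFD below the 358 to 654 TPM on CHOW. The 10 genes summed to 123 to 1185 TPM on CHOW and 852 to 2968 TPM on HFD at 34 weeks. HFD replicate 1, lowest for Il13, had the lowest HFD sum, and CHOW replicate 4, highest for Il13 among these CHOW libraries, had the highest CHOW sum. The lowest CHOW sum was in replicate 6 (123 TPM), while Il13 was lowest in CHOW replicate 1 (0 TPM). At 20 weeks, where mast cell genes rose, Il13 was not called (limma, 0.07, adjusted p = 0.939). The part of mast cell RNA in the Il13 values was not tested. The basophil gene Cd200r3 rose at both times (1.58, adjusted p = 0.00265, and 1.92, adjusted p = 0.0358), while Mcpt8, the protease that defines basophils, was not above 1.89 TPM in any 20 week HFD library.

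Across the 13 libraries of 34 weeks, Il1rl1 and Il13 had a Pearson r of 0.929 (0.924 after group means were subtracted), Il4 and Il13 0.895 (0.735), and Il1rl1 and Il4 0.893 (0.792). These libraries differ in their composition, and its part in the correlations was not tested. Across the 21 libraries of 8 and 20 weeks the same pairs had 0.663 (0.717 after subtraction), 0.616 (0.751) and 0.284 (0.622), and the pair with the highest r was Il5 and Siglecf (0.797, or 0.612 after subtraction). At 34 weeks other pairs exceeded the 0.735 of Il4 and Il13 after subtraction. Among them were Il13 and Areg at 0.876 (0.470 before) and Il4 and Gata3 at 0.816 (0.741 before). All these are descriptions on log2(TPM + 1) with no test.

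Of 13827 genes compared over the 21 libraries, the patterns most like that of Siglecf were those of Gapt (r = 0.960), F5 (0.959) and Vmn2r26 (0.936), which at 34 weeks correlated with it at 0.535, 0.260 and 0.122. For Il5 they were Fam83g (0.906), Pard6b (0.900) and Sfn (0.885), and for Gata3 Tnfsf11 (0.885), Epn3 (0.880) and Atp6v0e2 (0.873). For Il33 they were Clcf1 (0.881), Cxcl5 (0.853) and Zswim4 (0.850), and for Areg Smim3 (0.873), Acsl4 (0.871) and Gng4 (0.846). Lower values were found for Il1rl1 with Serpinb1a (0.833), Dcbld2 (0.796) and Srxn1 (0.780), for Il4 with Zc3hav1l (0.827), Cd164 (0.817) and Ugt1a6b (0.807), and for Il13 with Pdzrn3 (0.761), Ncs1 (0.712) and Klhl21 (0.702). At 34 weeks Klhl21 correlated with Il13 at 0.850 and Serpinb1a with Il1rl1 at 0.840, while Ugt1a6b correlated with Il4 at -0.659.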

How the data were processed

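SVF RNA of 34 mouse libraries was sequenced as stranded poly(A) libraries. The authors checked and trimmed reads (FastQC, MultiQC, Trimmomatic), quantified them with Salmon against gencode M10 (mm10) and deposited TPM per gene, in a table for 8 and 20 weeks and another for 34 weeks. The sources used here do not give versions of these tools. TPM keeps no counts, so depth is unknown and the count test of the study (DESeq2) could not be used.

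Identifiers were matched to gencode M21 symbols (31791 of 32098). log2(TPM + 1) values were fitted with limma 3.58.1 in R 4.3.3, with 1 mean per group, a mean-variance trend, two-sided tests and Benjamini-Hochberg adjustment over all genes tested (16808 at 8 and 20 weeks, 13982 at 34 weeks), at a threshold of 0.05. Fold changes on this scale understate the change of low genes. The script was tested on simulated data. In the text, rose and fell refer to genes past the threshold. The genes named are the 8 members, the 3 genes most alike to each, and up to 3 called genes of each of 7 pathway and 14 marker lists (172 genes, 2 in more than 1 list) with the largest changes. Members and lists were chosen with earlier results of these data known. Replicate numbers did not pair the libraries (correlations of deviations from -0.10 to 0.40), so no block was used. Alternatives varied the pseudocount, filter, scaling, weights, block, groups fitted and libraries left out. Leaving out the libraries that stood apart, or those rich in germ cell RNA, was chosen after seeing the data.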

Additional observations from a re-analysis of the deposited data

Results flagged for a closer look

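Each of the 48 pairs of a member and a group was checked for a highest or lowest library far from the next. The gap in TPM, as a share of the group's range, was set against Dixon's 95% critical value. That value is made for normally distributed data, and TPM was not put on the log2 scale here. The share of pairs passing therefore cannot be set against a rate expected by chance. It was passed in 8 pairs (16.7%), each time by the highest library. Il33 was at 154 TPM in CHOW 34 week replicate 4, against 38.8 TPM in the next, and Il1rl1 was at 23.01 TPM in the same library, against 12.7 TPM. Il5 was at 48.7 TPM in HFD 8 week replicate 6 (next 14.0 TPM), at 54.7 TPM in CHOW 20 week replicate 5 (next 15.7 TPM) and at 1.02 TPM in HFD 34 week replicate 2 (next 0.291 TPM). Gata3 was at 4.41 TPM in HFD 20 week replicate 4 (next 2.78 TPM). Areg was at 57.3 TPM in CHOW 8 week replicate 3 (next 10.3 TPM) and at 16.4 TPM in CHOW 34 week replicate 2 (next 8.41 TPM). No cause of these values was tested.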

How the results depend on the processing

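Other processing choices, leaving out single libraries aside, kept the direction and the side of the threshold in 262 of 294 refits of the member log2 fold changes given above. They ended a call in 9, made one in 13 and turned the sign in 10. The number of members called at 20 weeks, 3, became 5 with sample quality weights and 5 with the replicate block, 4 with quantile normalization and in the fit of only those groups, and 2 without the libraries rich in germ cell RNA. At 34 weeks the 1 called member became 0 with a pseudocount of 0.1 TPM, without a filter, with a filter of 5 TPM (which left Il4, Il13, Gata3 and Siglecf untested), with the replicate block and without the libraries that stood apart, 3 with quality weights and 2 without the libraries rich in germ cell RNA. The count went from 0 to 1 with quality weights for 20 against 8 weeks on CHOW and for the interaction. For 20 against 8 weeks on HFD, 2 became 3 with quantile normalization and with the replicate block, 1 without a filter and without the libraries rich in germ cell RNA, and 0 without the libraries that stood apart. With libraries left out in turn the counts ran from 0 to 0 at 8 weeks, 2 to 4 at 20 weeks, 0 to 3 at 34 weeks, 0 to 1 over time on CHOW, 1 to 3 over time on HFD and 0 to 0 for the interaction. The causes were not tested.

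Signs turned only for estimates that were not called. For Il13 at 20 weeks the value was -0.13 with quantile normalization, -0.11 with the replicate block and -0.070 without the libraries that stood apart, and -0.078 to 0.35 with libraries left out. At 34 weeks Il33 was at -0.10 with median-ratio scaling, -0.064 with quantile normalization, -0.45 without the libraries that stood apart and -0.27 to 0.45 with libraries left out. Gata3 was at -0.018 with quantile normalization. Areg was at -0.057, -0.11, -0.10 and -0.19 to 0.32 in the same order as Il33, and Siglecf at -0.14 to 0.10 with libraries left out. Median-ratio scaling moved the median of all genes by over 0.1 on the log2 scale in the interaction (0.18 to 0.03) and at 34 weeks (0.10 to -0.00), and quantile normalization also at 20 weeks (0.08 to -0.05) and over time on HFD (0.09 to -0.06).

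The replicate block pairs libraries that share only a number. With it Il4 (adjusted p = 0.0156) and Areg (0.0475) passed at 20 weeks and Gata3 (0.0376) passed over time on HFD, and Il13 at 34 weeks did not (0.108). Depth is unknown, so it is not shown whether more reads would separate the members near 0, such as Il5 at 34 weeks.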

Other observations

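Other cell types of the pellet also differed between the diets at 20 weeks, beside the changes of the members. Of all genes tested, 1566 of 16808 rose on HFD and 4.99% fell. Of 9 macrophage genes 4 rose, with a list median of 0.52, and of 9 adipocyte genes 7 fell, with a median of -1.16. Of 8 adipose progenitor genes 3 fell and 1 rose, Dpp4 (-1.37, adjusted p = 0.00194) and Pi16 (-0.91, adjusted p = 0.0179) among those that fell and Lum (0.89, adjusted p = 0.0117) as the gene that rose. Of 7 T cell genes Cd4 fell (-0.64, adjusted p = 0.0308), and none of 7 endothelial genes was called (limma, 1 with an unadjusted p under 0.05). All 4 hemoglobin genes fell, with a median of -1.72. By limma none of 6 germ cell genes was called (3 with an unadjusted p under 0.05), with a median of 3.77, and at 34 weeks none was called (6 of 6 with an unadjusted p under 0.05, median 3.39), while the only tested seminal vesicle gene was not called at 20 weeks (-1.55).

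From 8 to 20 weeks on HFD, 9 of 10 mast cell genes rose, led by Fcer1a (3.41, adjusted p = 7.69e-06), and 6 of 10 passed the interaction, led by Tpsab1 (3.20, adjusted p = 0.0155). Of all genes tested, 6.12% rose over this time on HFD and 0.297% passed the interaction. The regulatory T cell list held Il10, which rose over the same time (2.31, adjusted p = 0.00718), while Ccr8 fell (-1.27, adjusted p = 0.0233).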
